A study of Drosophila melanogaster with 5 samples.

Results

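Neuropeptide and peptide hormone genes were examined in chromatin accessibility data from dopamine and GABA neurons of adult *Drosophila melanogaster* heads. The set was a fixed list of 46 gene symbols. Its members in the data were the regions of the comparison table whose nearest gene, as the authors annotated it, carried one of these symbols: 165 of 80590 regions, which belonged to 39 of the 14273 genes in the table. Dopamine nuclei (2 libraries) were labelled in flies that carried *TH-Gal4*, a driver made from the tyrosine hydroxylase locus, and GABA nuclei (3 libraries) in flies that carried *vGAT-Gal4*, a driver of the vesicular GABA transporter locus. In both groups the driver switched on a UAS transgene for nuclear GFP, heads were taken from frozen adults reared at 25 °C, and GFP-positive nuclei were sorted by flow cytometry under a stringent gate. The age and sex of the flies are not given in the sources used here. *TH-Gal4* is known to miss many neurons of the PAM cluster, so the dopamine libraries stand for the nuclei that the driver marks and not for every dopamine neuron. ATAC-seq uses the Tn5 transposase to cut and tag DNA that is not wrapped in nucleosomes, and a pile of tags is called a peak. In bulk nuclei, a region that is open in more nuclei and a region that is more open in each nucleus cannot be told apart.

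Neuropeptides are cut from longer precursors, packed into dense core vesicles, often amidated, and released beside or instead of small transmitters such as dopamine and GABA. Most act through G protein-coupled receptors, over longer distances and times than the transmitters, and set states such as hunger, sleep, arousal and water balance. Each is usually made by a few defined neurons of the fly brain, by enteroendocrine cells of the gut or by glands, so that a peptide gene is not expected to be in use in most neurons of either type. Open chromatin at a gene is not a measure of its transcript, and no RNA was measured here.

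Each library had its own list of peaks called by the authors, and each peak had a fold enrichment, the ratio of its tags to the local background at its summit. The lists held 69464 and 69940 peaks for dopamine neurons, against 84055, 81638 and 107219 peaks for GABA neurons. Their lowest fold enrichments were 1.80 and 1.93 in the dopamine lists, against 1.25, 1.28 and 1.28 in the GABA lists, and their highest were 8.49 and 11.2, against 21.5, 19.9 and 16.0. The peak lists and the table give no reads per library, and the read totals that the study gives elsewhere were not used here. Among genes that mark the cells, *ple* (tyrosine hydroxylase) was higher in dopamine neurons (log2 difference 1.74) and *Gad1* and *VGAT* were lower (-1.23 and -1.33) by the test given below, whereas *DAT* and *Ddc* were not called and *Vmat* had no peak in dopamine library 2. Of the genes that mark other cells, the glial gene *moody* (0.90) and the epidermal gene *grh* (0.69) were higher in dopamine neurons, the glial gene *alrm* was lower (-1.14), *repo* and *vvl* were not called, and no fat body gene had a peak in all 5 lists. Of the photoreceptor genes, *ninaE* and *ninaC* were not called, and *trp*, which had no dopamine peak, had 4.35, 4.71 and 3.05 in GABA neurons. The pan-neuronal genes moved both ways, with *elav* higher in dopamine neurons (0.46), *nSyb* lower (-0.68) and *brp* not called. The part of such cells in the results below was not tested.

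Dopamine neurons had fewer peaks at the peptide genes than GABA neurons did. A peak overlapped 64 and 57 of the 165 regions in the dopamine lists, against 79, 83 and 104 in the GABA lists. As a share, this was 38.8% and 34.5% of the peptide gene regions in dopamine neurons, against 47.9%, 50.3% and 63.0% in GABA neurons. The groups did not overlap, with means of 36.7% ± 3.0 (SD, n = 2) and 53.7% ± 8.14 (SD, n = 3), and the exact permutation test gave p = 0.2 (two-sided), the smallest p that 2 libraries against 3 can give. Over all 80590 regions the shares were 40.5% and 40.4% in dopamine neurons, against 49.5%, 49.2% and 60.2% in GABA neurons, so that the dopamine lists were shorter everywhere. The share at the peptide genes minus that over all regions was -1.67 and -5.82 percentage points in the dopamine lists, against -1.66, 1.11 and 2.85 percentage points in the GABA lists. Dopamine library 1 thus stood about as far below all regions as GABA library 1 did. Counted by gene, 24 and 23 of the 39 peptide genes had a peak in the dopamine lists, against 30, 31 and 36 in the GABA lists. These were 61.5% and 59.0% in the dopamine lists, against 76.9%, 79.5% and 92.3% in the GABA lists. Over all genes the shares had the same order, 76.0% and 75.1%, against 80.5%, 80.7% and 88.8%.

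A region was placed by the lists in which it had a peak. At the peptide genes, 19 regions (11.5%) of 8 genes had a peak in the lists of dopamine libraries 1 and 2 and in none of the GABA lists, beside 8.42% of all regions. In the other direction, 29 regions (17.6%) of 17 genes had a peak in all 3 GABA lists and in neither dopamine list, beside 13.2% of all regions. Of the remainder, 24 (14.5%, against 20.6% of all regions) had a peak in all 5 lists, 67 in some lists and 26 in none. Of the dopamine-only regions, *ITP* held 6, *NPF* 3, *Nplp1* 3, *CNMa* 2 and *Ilp8* 2, and *ETH*, *Nplp3* and *Pburs* held 1 each. Among the GABA-only regions, 7 belonged to *Hug* and 3 to *Burs*. *Dh31*, *Ilp7*, *Ms* and *Nplp1* had 2 GABA-only regions each, and the other 11 genes had 1. *Nplp1* was the gene with regions of both kinds. Every list was also shortened to its 69464 strongest peaks, the length of the list of dopamine library 1. The dopamine lists thus lost few or no peaks, and the 19 dopamine-only regions, which all remained, could hardly fall away. Dopamine-only regions were then 12.1% of the peptide gene regions beside 9.65% of all regions. Of the 29 GABA-only regions, 18 remained, or 10.9% of the peptide gene regions beside 8.71% of all regions.

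**Figure D1:**
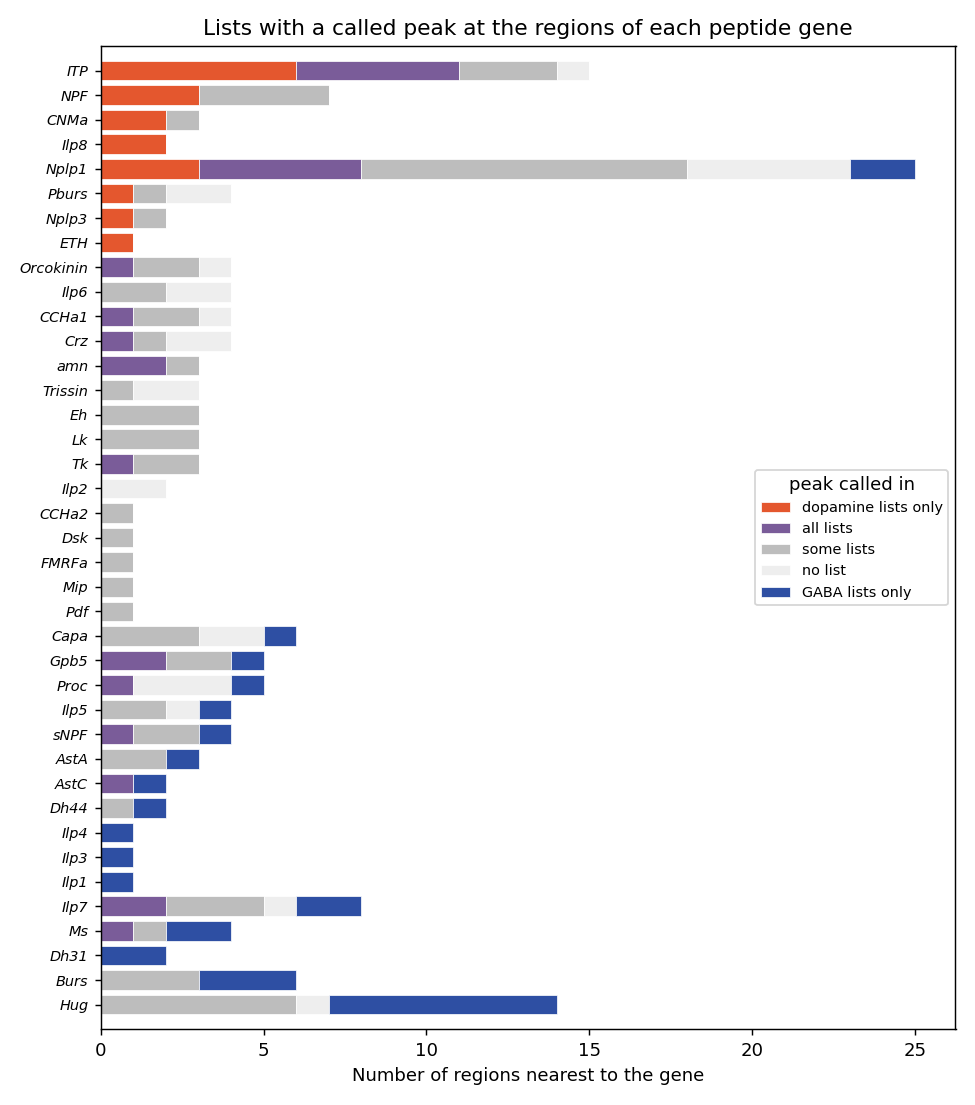
Number of regions nearest to each of the 39 peptide genes (bars, one per gene), split by the peak lists in which the region had a called peak: both dopamine lists and none of the GABA lists (orange), all 5 lists (purple), some lists (grey), no list (light grey), or all 3 GABA lists and no dopamine list (blue). Dopamine-only regions sit at 8 genes and GABA-only regions at 17, and *Nplp1*, the gene with the most regions (25), has both.

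The highest peak at each gene was then ranked, as a percentile, among all peaks of its own list. The percentile depends on how many weak peaks that list holds. The GABA lists reach down to lower values, so that an equal low value can rank higher in them. A fold enrichment of 2.28 ranked at 16.5 in dopamine library 2 (*AstC*), and one of 2.28 at 56.5 in GABA library 3 (a region of *AstA*). With a gene that had no peak in a list placed at 0, 6 of the 38 peptide genes with a peak in any list (15.8%) had both dopamine percentiles above all 3 GABA percentiles, beside 24.8% of all genes. These 6 were *ITP*, *NPF*, *CNMa*, *ETH*, *Ilp8* and *Nplp3*. In 26 of the 38 (68.4%) both dopamine lists ranked below every GABA list, beside 40.9% of all genes. The groups overlapped at the other 6, *Pburs*, *Pdf*, *Ilp6*, *Dsk*, *FMRFa* and *Trissin*. A peak was absent from both dopamine lists at 12 of the 39 peptide genes (30.8%, against 20.2% of all genes) and from all 3 GABA lists at 3 (7.69%, against 8.31%).

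**Figure D2:**
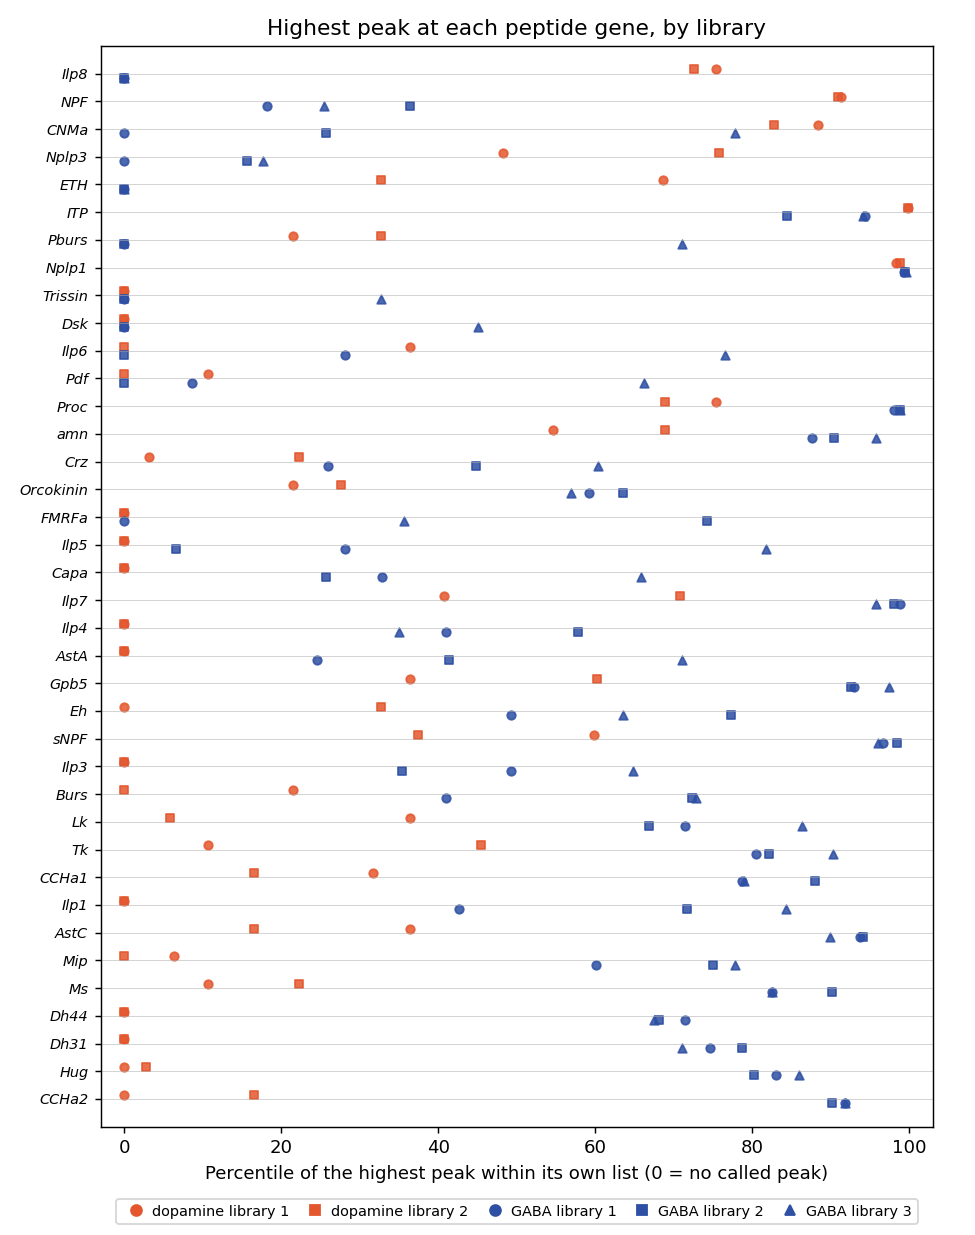
Percentile of the highest peak at each of 38 peptide genes (rows) within its own peak list, for 2 dopamine libraries (orange) and 3 GABA libraries (blue); a gene with no called peak is drawn at 0. Dopamine symbols lie to the right of all GABA symbols in 6 rows, from *Ilp8* to *ITP*, and to the left of all of them in 26.

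Fold enrichments were compared with limma after quantile normalization of the libraries, over all 8816 genes that had a peak in every list, and 15 peptide genes (38.5% of 39, against 61.8% of all genes) could enter this fit. A difference is given as log2, dopamine minus GABA, on the normalized scale, so it does not equal the ratio of the deposited values printed beside it. At an adjusted p under 0.05, 2 of the 15 peptide genes were higher in dopamine neurons, where 28.0% of all genes were called, and 10 were lower, where 29.0% of all genes were called. The median difference of the 15 was -0.81, against 0.01 over all genes. With all peaks in the gene span and 2 kb on each side, 9 of 25 peptide genes were higher and 10 were lower. Of all genes, 26.7% and 28.2% were called in that setting. At the level of regions, 24 had a peak in every list: 7 were higher in dopamine neurons (25.3% of all regions) and 14 were lower (27.7% of all regions), with a median of -0.64, against -0.02 over all regions. The labels do not say whether libraries of a group came from separate collections of flies, so the p-values measure the spread between these libraries.

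**Figure D3:**
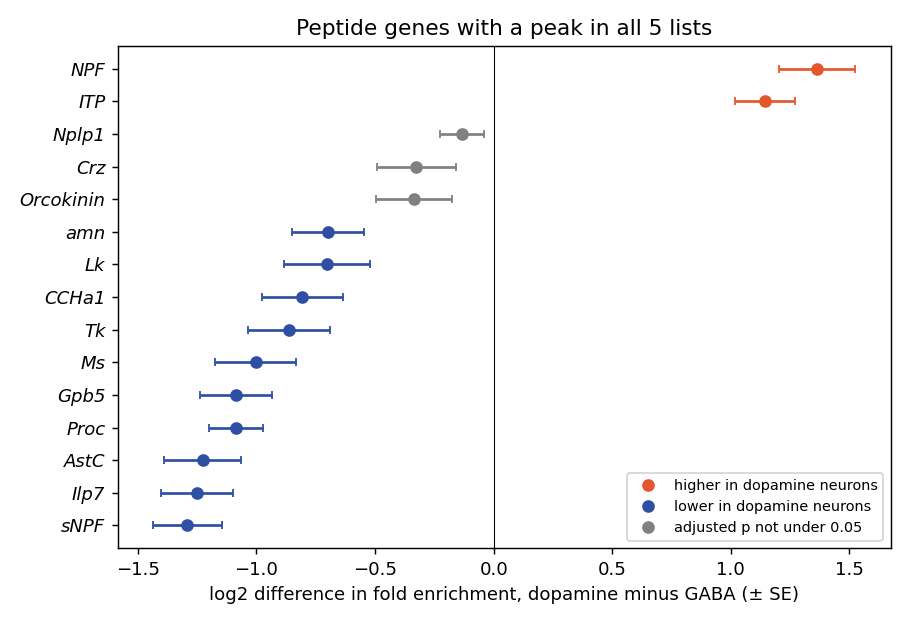
Log2 difference in fold enrichment (dopamine minus GABA, quantile normalized) at the 15 peptide genes with a peak in all 5 lists; points are limma estimates and bars are 1 SE each way. *NPF* and *ITP* lie at 1.36 and 1.15, 10 genes lie between -1.29 and -0.70, and *Nplp1*, *Crz* and *Orcokinin* did not pass the threshold.

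Of the modulatory peptides, which act on circuits and muscles, 21 of 25 genes had a region and 11 entered the fit. Of these, 1 was higher in dopamine neurons (beside 28.0% of all genes), 7 were lower (beside 29.0%) and 3 were not called. *NPF* encodes neuropeptide F, a relative of vertebrate neuropeptide Y with roles in feeding, sleep and the response to ethanol. Its highest peaks had fold enrichments of 4.58 and 5.92 in dopamine neurons, against 1.91, 2.19 and 1.86 in GABA neurons. The dopamine values were more than any GABA value, and the difference was 1.36 (SE 0.16, adjusted p = 1.11e-06). The percentiles were 91.4 and 90.9 in the dopamine lists, against 18.2, 36.4 and 25.5 in the GABA lists. This difference set side by side peaks at different places, since the highest dopamine summit lay inside the gene (3R, 16610120 to 16610324, within 1 kb of a start site) and the GABA peaks lay at or upstream of the start. At the region over the start of the gene (3R, 16608406 to 16609268), the values were 4.43 and 5.58 in dopamine neurons, against 1.91 and 1.86 in GABA libraries 1 and 3 and no peak in GABA library 2. A single dopamine peak interval spanned several neighbouring regions of *NPF*, and 2 of the 3 dopamine-only regions of this gene carried the value of the same peak.

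*Nplp1*, a precursor that is cut into several peptides, had 25 regions on 2R, more than any other peptide gene. Its highest peaks gave 5.79 and 7.97 in dopamine neurons, against 10.9, 10.9 and 8.35 in GABA neurons, and the difference of the gene was -0.13 (SE 0.09, adjusted p = 0.229). The highest peak was not the same region in both neuron types. In GABA neurons it lay over the start of *Nplp1* (25032110 to 25032700), where the values were 3.61 and 4.67 in dopamine neurons, against 10.9, 10.9 and 8.35 in GABA neurons. Both dopamine values lay well below the GABA values, with a difference of -1.15 (SE 0.10, adjusted p = 5.1e-07). In dopamine neurons the highest peak lay upstream, in an intron of the neighbouring gene *uzip* (25023886 to 25024483), with 5.79 and 7.97 in dopamine neurons, against 3.55, 3.19 and 2.75 in GABA neurons. Here the difference was 1.29 (SE 0.13, adjusted p = 1.1e-06), opposite in sign to the start site. A region 1 to 2 kb upstream of the start (25030471 to 25031256) was also higher, with 3.16 and 5.01 in dopamine neurons, against 2.25, 1.94 and 1.99 in GABA neurons. Of the 10 *Nplp1* regions inside *uzip*, 2 were dopamine-only and none was GABA-only, whereas the 2 GABA-only regions of the gene lay in an exon of *Nplp1* (25037211 to 25037513) and in *gsb-n* (25041324 to 25041864). Whether the upstream regions act on *Nplp1* or on *uzip* was not tested. Over the gene span and 2 kb on each side, which leaves out the regions farther upstream, *Nplp1* was lower in dopamine neurons (-1.15, adjusted p = 3.29e-08), and with libraries centred on their medians it was also called lower (-0.63, adjusted p = 3.97e-05).

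**Figure D4:**
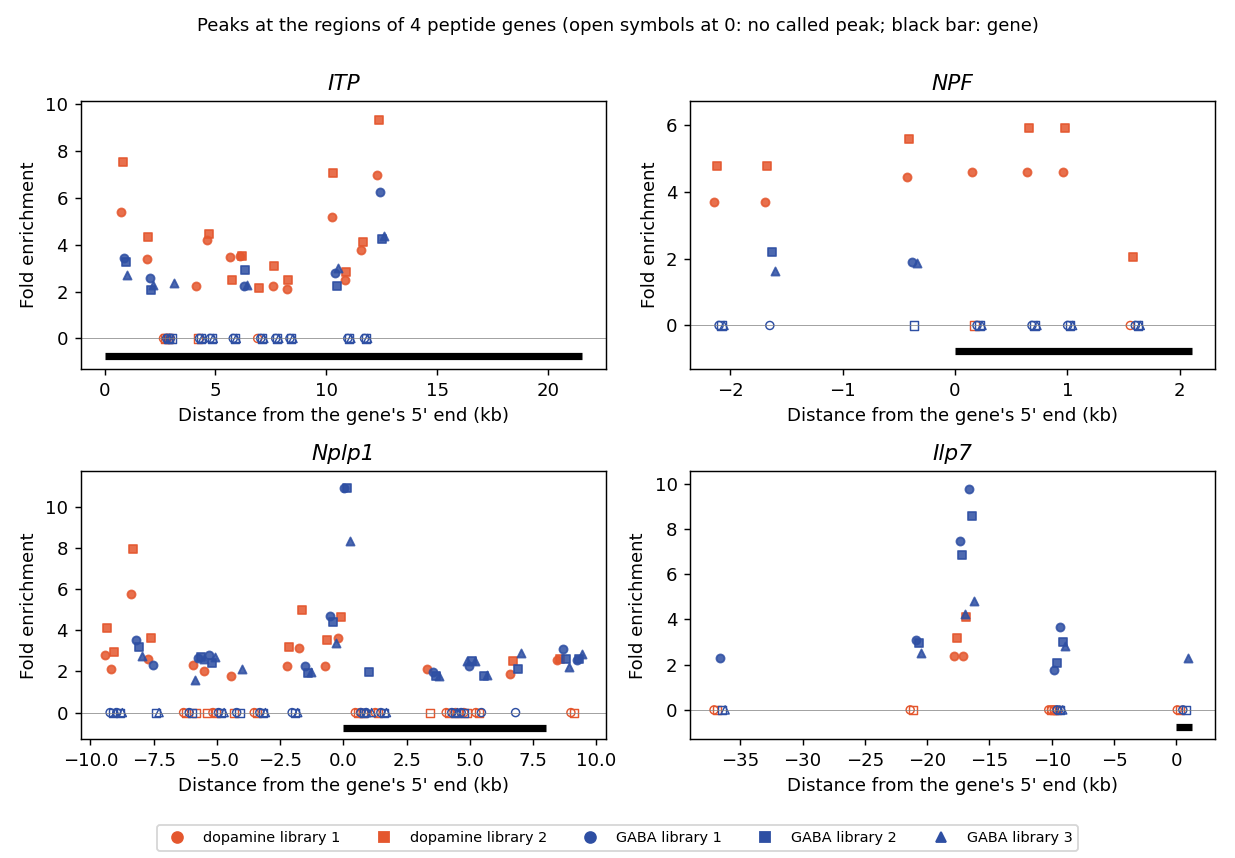
Fold enrichment of the highest peak (vertical axis) at each region of *ITP*, *NPF*, *Nplp1* and *Ilp7*, against the distance of the region from the gene's start in kb (horizontal axis, negative upstream), for 2 dopamine libraries (orange) and 3 GABA libraries (blue); open symbols at 0 mark a list with no called peak, and the black bar is the gene. Dopamine symbols are above the GABA symbols at most regions of *ITP* and *NPF* and at the strongest upstream region of *Nplp1*, and below them at the start of *Nplp1* and at the strong regions upstream of *Ilp7*.

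Short neuropeptide F, encoded by *sNPF*, modulates feeding and olfactory responses. Of the 15 genes in the fit, *sNPF* had the lowest difference. The highest peaks of the gene had 2.86 and 2.73 in dopamine neurons, against 7.36, 8.97 and 4.92 in GABA neurons. Every GABA value exceeded both dopamine values, and the difference was -1.29 (SE 0.14, adjusted p = 5.83e-07). The peak region lay just upstream of the gene (2L, 20027196 to 20027443) and had a difference of -1.31 (SE 0.16, adjusted p = 7.4e-06). An intronic region of *sNPF* (2L, 20039518 to 20039645) was GABA-only, with 3.18, 2.64 and 2.55 in the GABA lists.

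The allatostatins inhibit, among others, the synthesis of juvenile hormone in various insects, and *AstC* encodes the peptide related to vertebrate somatostatin. At *AstC* the values were 2.33 and 2.28 in dopamine neurons, against 6.03, 6.26 and 3.64 in GABA neurons, at 1 region upstream of the start (2L, 11082049 to 11082286). All GABA values lay above the dopamine values, with a difference for the gene of -1.23 (SE 0.16, adjusted p = 3.54e-06). A further region close to the start (2L, 11081499 to 11081704) was GABA-only, with 2.29, 2.22 and 1.89. *AstA*, whose peptide curbs feeding, had no dopamine peak, against 2.01, 2.27 and 2.59 in the GABA lists at its start (3R, 24765081 to 24765239).

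Proctolin and myosuppressin act on muscle, proctolin as a stimulant and myosuppressin as an inhibitor. At the start of *Proc* (2L, 7871096 to 7871888), fold enrichments were 3.46 and 3.98 in dopamine neurons, against 8.51, 9.49 and 6.76 in GABA neurons. The groups did not overlap and the difference of the gene was -1.09 (SE 0.11, adjusted p = 2.61e-07). At the start of *Ms* (3R, 24341293 to 24341722) the values were 1.95 and 2.39 in dopamine neurons, against 3.96, 5.17 and 3.03 in GABA neurons, with a difference for the gene of -1.0 (SE 0.17, adjusted p = 5.67e-05). *Ms* was thus lower in dopamine neurons in every library, and 2 regions within the gene were GABA-only, the stronger with 2.90, 3.34 and 2.50 (3R, 24342611 to 24343132).

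Tachykinins, from *Tk*, are known from aggression, olfaction and gut signalling. *Tk* had 1.95 and 2.96 in dopamine neurons, against 3.79, 3.96 and 3.69 in GABA neurons, at its start (3R, 12005463 to 12005746). The dopamine values were below all GABA values, with a difference for the gene of -0.86 (SE 0.17, adjusted p = 0.000316). For *CCHa1*, a peptide linked to arousal and the circadian clock, the values were 2.25 and 2.28 in dopamine neurons, against 3.63, 4.75 and 2.85 in GABA neurons, with a difference of -0.81 (SE 0.17, adjusted p = 0.000569). Again no dopamine value reached a GABA value. The region with peaks in all lists lay upstream of the start (3R, 14096886 to 14097150), with 2.10 and 2.28 in dopamine neurons, against 3.63, 4.75 and 2.85 in GABA neurons. Both calls depended on which peaks were assigned to the gene. With all peaks in the gene span and 2 kb on each side, *Tk* had a difference of -0.09 (adjusted p = 0.637) and *CCHa1* was higher in dopamine neurons, at 0.63 (adjusted p = 2.98e-05).

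The *amnesiac* gene, *amn*, was found through a memory mutant. It had fold enrichments of 2.70 and 3.98 in dopamine neurons, against 4.62, 5.22 and 4.87 in GABA neurons, and the difference was -0.70 (SE 0.15, adjusted p = 0.000703). Both of its regions with peaks in all lists were lower in dopamine neurons. The clearer was within 1 kb of the start (X, 19889140 to 19889759), with 2.55 and 2.96 in dopamine neurons, against 4.07, 5.22 and 4.42 in GABA neurons.

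*Crz*, which encodes the stress peptide corazonin, and *Orcokinin* did not pass the threshold. At *Crz* the values were 1.80 and 2.39 in dopamine neurons, against 2.04, 2.34 and 2.37 in GABA neurons, so that the deposited values of the groups overlapped (difference -0.33, SE 0.17, adjusted p = 0.104). At *Orcokinin* they were 2.10 and 2.50 in dopamine neurons, against 2.72, 2.84 and 2.29 in GABA neurons, and dopamine library 2 lay above GABA library 3 (difference -0.34, SE 0.16, adjusted p = 0.0809). Without GABA library 3, *Orcokinin* was called lower in dopamine neurons (-0.40, adjusted p = 0.0481). The region of *Crz* with peaks in all lists lay 1 to 2 kb upstream (3R, 14313201 to 14313388), and that of *Orcokinin* at a start site (2R, 23948692 to 23948862). By percentile, both genes ranked lower in both dopamine lists than in the GABA lists. At *Crz* this held although the fold enrichment of dopamine library 2, 2.39, was the highest of the 5 libraries.

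Several modulatory genes lacked a peak in some lists and so did not enter the fit. *Hug* encodes hugin, a peptide that suppresses feeding, and had 14 regions. Its highest peak had no counterpart in dopamine library 1 and reached 1.93 in dopamine library 2, against 4.02, 3.79 and 3.26 in GABA neurons. All 3 GABA percentiles, 83.1, 80.3 and 86.0, were far above the dopamine percentiles of 0 and 2.71. Of the 14 regions, 9 lay inside the neighbouring gene *Octbeta3R*, which encodes an octopamine receptor. None of these 9 had a dopamine peak and 5 were GABA-only, among them the *Hug* region with the highest mean signal of the GABA-only ones (3R, 12517583 to 12518318, with 2.34, 1.71 and 2.13). The other 2 GABA-only regions of *Hug* lay within the gene's promoter annotation, at 12526290 to 12526420 and 12527414 to 12527600.

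*CNMa*, the gene of CNMamide, a peptide tied to the sensing of amino acids, had the reverse pattern. Fold enrichments were 4.28 and 5.01 in dopamine neurons, against no peak, 2.01 and 2.81 in GABA neurons. The strong dopamine peak lay in an intergenic region beyond the far end of the gene (3L, 1849614 to 1849998), which had no peak in any GABA list, and a weaker dopamine-only region lay beside it (1849242 to 1849378). In GABA libraries 2 and 3 the peak lay in an exon of *CNMa* instead. With all peaks in the gene span and 2 kb on each side, *CNMa* entered the fit and was lower in dopamine neurons (-0.34, adjusted p = 0.0118), so that its direction depended on which peaks were assigned to it. *Nplp3*, another peptide precursor, had 2.55 and 4.44 in dopamine neurons, against no peak, 1.85 and 1.76 in GABA neurons. Its dopamine-only region was directly upstream of the start (3L, 16317822 to 16317982), with 2.33 and 4.44. At the regions of *CCHa2*, *Mip* and *Pdf* only 1 dopamine list held a peak. *CCHa2*, whose peptide reports nutritional state to the insulin-producing cells, had no peak and 2.28 in dopamine neurons, against 5.47, 5.17 and 3.91 in GABA neurons. *Mip* had 1.88 and no peak in dopamine neurons, against 2.73, 3.38 and 2.81 in GABA neurons. *Pdf*, the transmitter of the clock neurons, had 1 region over its start, with 1.95 and no peak in dopamine neurons, against 1.74, no peak and 2.48 in GABA neurons, which overlapped. The regions of *FMRFa*, *Dsk* and *Trissin* had no dopamine peak, and their GABA peaks, in 2 libraries, 1 library and 1 library, had values between 1.96 and 3.34. Over the gene span and 2 kb on each side, each of these genes had a peak in every list. There *FMRFa* (0.91) and *Dsk* (0.76) were called higher in dopamine neurons, and *Trissin* (-0.36) was not called. The dopamine peaks in these windows lay outside the regions assigned to the genes.

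All 5 peptide genes of water balance had a region, and 2 entered the fit. Of these, 1 was higher in dopamine neurons (beside 28.0% of all genes) and 1 was lower (beside 29.0%). *ITP* encodes ion transport peptide, an antidiuretic hormone that is also made in brain neurons. It reached percentiles of 99.9 and 99.9 in the dopamine lists, against 94.4, 84.4 and 94.1 in the GABA lists, and thus belonged to the strongest peaks of dopamine neurons. Fold enrichments were 6.99 and 9.33 in dopamine neurons, against 6.25, 4.22 and 4.38 in GABA neurons. Both dopamine values lay above the GABA values, narrowly for library 1, and the difference was 1.15 (SE 0.13, adjusted p = 4.91e-07). With libraries centred on their medians in place of quantile normalization, it was 0.66 (adjusted p = 0.00081). The peak lay in an intron of *ITP* (2R, 24549497 to 24550233). A further intronic region (24547588 to 24548045) had the largest difference of the gene, with 5.18 and 7.06 in dopamine neurons, against 2.79, 2.22 and 2.99 in GABA neurons (1.24, SE 0.17, adjusted p = 2.7e-05). The region within 1 kb of the gene's first start (24537748 to 24538857) had 5.41 and 7.51 in dopamine neurons, against 3.44, 3.28 and 2.72 in GABA neurons, and a difference of 1.16 (SE 0.13, adjusted p = 3.2e-06). All 5 *ITP* regions with a peak in every list were higher in dopamine neurons, and 6 more of its 15 regions were dopamine-only. The one of these with the highest mean signal (24541909 to 24542469) had 4.21 and 4.44 in dopamine neurons and no GABA peak. No region of *ITP* had a peak in all 3 GABA lists and in neither dopamine list, but 1 region (24540355 to 24540434) had a peak in GABA library 3 alone, at 2.35.

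At the other genes of water balance the dopamine lists ranked below the GABA lists. *Lk* encodes leucokinin, which stimulates secretion by the Malpighian tubules, the kidney of the fly. Its highest peaks gave 2.33 and 2.05 in dopamine neurons, against 3.18, 2.96 and 3.29 in GABA neurons. No dopamine value reached a GABA value, and the difference was -0.70 (SE 0.18, adjusted p = 0.00299). This call rested on dopamine library 2, since without it the difference was -0.48 (adjusted p = 0.107), and with the gene span and 2 kb on each side it was -0.39 (adjusted p = 0.0592). No region of *Lk* had a peak in all lists, and the dopamine peaks lay at 2 different regions, over the gene (3L, 14560323 to 14560711) in library 1 and beyond it (14562810 to 14562917) in library 2.

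The diuretic hormone genes *Dh31* and *Dh44*, related to vertebrate calcitonin and corticotropin-releasing factor, had no peak in either dopamine list. *Dh31* had 3.35, 3.64 and 2.59 in the GABA lists, and its regions upstream of the start (2L, 8506930 to 8507133) and in an intron (8502082 to 8502370) were both GABA-only. *Dh44* had 3.18, 3.01 and 2.50 in the GABA lists, at a GABA-only region over a start site (3R, 9640274 to 9640573). *Capa*, whose peptides act on the Malpighian tubules, also had no dopamine peak, against 2.16, 2.01 and 2.47 in GABA neurons, with a GABA-only region just past its end (3R, 29912535 to 29912716). These GABA peaks were of middle rank, with percentiles between 67.5 and 78.7 for *Dh31* and *Dh44* and between 25.6 and 65.8 for *Capa*.

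None of the 4 ecdysis genes with a region entered the fit, because none had a peak in all lists. These hormones drive the shedding of the cuticle and the hardening that follows. *ETH*, the ecdysis-triggering hormone of the peripheral Inka cells, had 1 region, upstream of its start (2R, 24795860 to 24796082), with 3.16 and 2.62 in dopamine neurons and no peak in any GABA list. The percentiles of 68.6 and 32.7 in the dopamine lists were not high. Over the gene span and 2 kb on each side every list held a peak, and *ETH* was higher in dopamine neurons (limma, 0.48, adjusted p = 0.0051). The GABA peaks in that window lay outside the *ETH* region. *Burs* and *Pburs* encode both subunits of bursicon, the hormone of cuticle tanning and wing expansion. *Burs* had 2.10 and no peak in dopamine neurons, against 2.29, 3.22 and 2.65 in GABA neurons, and 3 of its 6 regions were GABA-only. Of these, a region past the gene (3R, 21770684 to 21771115) had the highest mean signal, with 2.29, 2.36 and 2.65. Another (21771224 to 21771652) also lay past the gene. The *Burs* peak of dopamine library 1 lay still farther on, in an exon of *GABA-B-R2* (21771735 to 21772079). *Pburs* had 2.10 and 2.62 in dopamine neurons, against no peak, no peak and 2.59 in GABA neurons. Its dopamine-only region was intergenic, upstream of the gene (2L, 14421211 to 14421285). Both subunit genes thus had a peak in dopamine library 1 and in GABA library 3, and the percentiles of *Pburs* overlapped between the neuron types. *Eh*, eclosion hormone, had no peak and 2.62 in dopamine neurons, against 2.45, 3.54 and 2.41 in GABA neurons.

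Among the genes of growth and metabolism, which are 8 insulin-like genes and *Akh*, only *Ilp7* entered the fit. *Ilp7* is known from neurons of the ventral nerve cord. Its highest peaks gave 2.40 and 4.10 in dopamine neurons, against 9.75, 8.55 and 4.83 in GABA neurons. All GABA values were above the dopamine values, with a difference of -1.25 (SE 0.15, adjusted p = 1.53e-06). The region (X, 3650824 to 3651113) lay upstream of *Ilp7* (-16508 bp from its start), in an intron of *AstA-R1*, the gene of an allatostatin A receptor. A second region nearby (3649876 to 3650562) was likewise lower, with 2.40 and 3.19 in dopamine neurons, against 7.45, 6.86 and 4.26 in GABA neurons (-1.14, SE 0.15, adjusted p = 1.2e-05). In all, 7 of the 8 regions of *Ilp7* lay inside *AstA-R1*, so that the assignment to *Ilp7* rests on the nearest-gene rule. The region within *Ilp7* itself had a peak in GABA library 3 alone, at 2.28. Of the GABA-only regions of *Ilp7*, that at 3646639 to 3646770 had the higher mean signal, with 3.10, 2.96 and 2.50.

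*Ilp1* to *Ilp5* lie beside each other on 3L, and *Ilp2*, *Ilp3* and *Ilp5* are the insulins of the brain's insulin-producing cells. Their 9 regions held no dopamine peak, 6 of the 9 had a peak in at least 1 GABA list, and 4 were GABA-only. *Ilp1* had 2.34, 3.20 and 3.15 in the GABA lists, over its start (9798398 to 9798575). *Ilp3* had 2.45, 2.16 and 2.46, also over its start (9801985 to 9802359). At *Ilp4* the values were 2.29, 2.64 and 1.98, in an exon of *CG32052* (9807742 to 9807888), and at *Ilp5* they were 2.06, 1.69 and 2.99, 1 to 2 kb upstream of the start for the GABA-only region (9825838 to 9826029). Their percentiles lay between 6.61 (*Ilp5*, GABA library 2) and 84.3 (*Ilp1*, GABA library 3). Over the gene span and 2 kb on each side, *Ilp5* had a peak in every list and was not called (limma, -0.35, adjusted p = 0.149). The dopamine peaks in that window lay outside the *Ilp5* regions. *Ilp2*, which is the gene between *Ilp1* and *Ilp3*, had 2 regions near its start and no peak in any list.

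*Ilp8* was the exception among the insulin-like genes. It encodes a relaxin-like hormone known from larval imaginal discs, where it delays metamorphosis. At its regions the highest peaks gave 3.46 and 4.21 in dopamine neurons, at percentiles of 75.3 and 72.6, and the GABA lists held no peak. The stronger region lay over the start (3L, 17031938 to 17032232). The second region of the gene (17030021 to 17030289), with 3.31 and 3.30, was dopamine-only as well. Over the gene span and 2 kb on each side every list held a peak, and *Ilp8* was higher in dopamine neurons (limma, 0.60, adjusted p = 0.0077). The GABA peaks in that window lay outside both *Ilp8* regions. *Ilp6*, an insulin of the fat body, had 2.33 and no peak in dopamine neurons, against 2.06, no peak and 2.77 in GABA neurons, so that the groups overlapped.

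*Gpb5* encodes the beta subunit of a glycoprotein hormone related to thyrostimulin, whose alpha subunit is encoded by *Gpa2*. The values were 2.33 and 3.53 in dopamine neurons, against 5.76, 5.76 and 5.58 in GABA neurons. The GABA values were close to each other and above both dopamine values, and the difference was -1.08 (SE 0.15, adjusted p = 7.37e-06). Over the start (2L, 23311648 to 23312339) it was -1.16 (SE 0.15, adjusted p = 1.2e-05), and a region upstream (23310950 to 23311175) was GABA-only, with 3.22, 3.26 and 3.42.

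A list of 13 genes for the cleavage, amidation, storage and release of peptides had members called in both directions. A region was present for 12 of them and 11 entered the fit. Of these, 3 were higher in dopamine neurons (beside 28.0% of all genes), 4 were lower (beside 29.0%) and 4 were not called. Their median difference was -0.11, against -0.81 for the peptide genes and 0.01 over all genes. With median centring, with -log10 q values or with a mean over regions, 1 was higher and 6 were lower. The higher ones were *Pal1* (0.49, SE 0.13, adjusted p = 0.00331), an enzyme of amidation, *svr* (0.37, SE 0.12, adjusted p = 0.0137), a carboxypeptidase, and *Sytalpha* (0.38, SE 0.13, adjusted p = 0.0189), a synaptotagmin. At all 3 the deposited values of the groups overlapped. *Pal1* had 4.51 and 7.06 in dopamine neurons, against 4.25, 4.55 and 3.77 in GABA neurons. *svr* had 4.88 and 7.06, against 4.91, 5.20 and 4.70, and *Sytalpha* had 4.81 and 5.80, against 4.91, 4.55 and 3.19. The percentiles overlapped at *Pal1* and *svr* but not at *Sytalpha*. The lower ones were *Sytbeta* at -1.03, the protease gene *Fur1* at -0.86, *Pal2* at -0.69 and *7B2*, a partner of the convertase amontillado, at -0.58. Among these the deposited values overlapped at *Pal2* alone, with 3.16 and 5.23 in dopamine neurons, against 7.41, 7.60 and 4.94 in GABA neurons. The convertase gene *amon* had 5.41 and 7.28 in dopamine neurons, against 7.23, 8.09 and 6.09 in GABA neurons, and *Phm*, the amidating monooxygenase, had 4.28 and 6.37, against 6.38, 4.70 and 4.02. Neither was called (adjusted p = 0.446 and 0.455), and both overlapped between the groups. *dimm*, the transcription factor of peptidergic cells, had no peak and 2.96 in dopamine neurons, against 4.91, 7.33 and 4.26 in GABA neurons, and so did not enter the fit.

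The regions of the peptide genes were compared with all regions in number, position and strength. A peptide gene had a median of 3 regions, against 4 for all genes, and 44.8% of its regions lay within 1 kb of a start site, against 39.8% of all regions. The median of the authors' mean signal, a normalized read count over the 5 libraries, was 79.2 at the peptide genes, against 81.0 for all regions. Of the dopamine-only regions, 6 of 19 (31.6%) lay within 1 kb of a start site, against 49.6% of all dopamine-only regions. Of the GABA-only regions, 12 of 29 (41.4%) did, against 20.6% of all GABA-only regions. Regions of the same gene are not independent, and these shares were not tested. In all, 33 of the 165 regions were annotated to an intron or exon of another gene, which limits how far they can be read as regions of the peptide gene. Regions annotated as promoters were not counted here, although some also lay inside a neighbour. The *Capa* region at 29915244 to 29915390 on 3R, for example, lay inside *trp*.

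The remaining 7 genes, *CCAP*, *Nplp2*, *Nplp4*, *SIFa*, *RYa*, *Akh* and *Gpa2*, were nearest to no region. *Gpa2* lies on an unplaced scaffold. Within the gene and 2 kb on each side, *RYa* had no peak in any list. *SIFa* had 1 peak, in dopamine library 1, and *Nplp2* had peaks in GABA libraries 2 and 3 only. Near *CCAP*, the gene of crustacean cardioactive peptide, the highest peaks gave 4.21 and 5.69 in dopamine neurons, against 3.07, 3.11 and 2.85 in GABA neurons. Those peaks were at regions assigned to the neighbour *Cyp6d4*, and the windows of *Nplp4* and *Akh* likewise held peaks assigned to neighbouring genes.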

How the data were processed

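Per the labels and the study's methods, reads were trimmed (CutAdapt), aligned to the dmel_r6.26 assembly (BDGP6; Bowtie2) and cleared of duplicates (Picard), and the authors then called peaks library by library (MACS2), counted reads (featureCounts), ran DESeq2 between neuron types and annotated regions (ChIPseeker). The settings of MACS2 and the making of the table's regions are not given in the sources used here. Per peak, the authors deposited a ratio, the fold enrichment, with -log10 p, -log10 q and a score, and for each of 80590 regions a mean signal, the mean normalized read count over all libraries. The deposited table also holds a log2 fold change, its standard error, a statistic, a p-value and an adjusted p-value of the authors' comparison, which were neither used nor printed. It holds no value per library, so no count model was run.

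Peaks were joined to regions by an overlap of at least 1 bp, and to genes through the authors' nearest-gene symbol. The highest fold enrichment was used, without a pseudocount. Genes or regions with a peak in all 5 lists were compared with limma 3.58.1 (lmFit, eBayes with trend; R 4.3.3) on quantile-normalized log2 values, with Benjamini-Hochberg adjusted p-values over all 8816 genes or 16601 regions and a threshold of 0.05. On simulated data for the 8816 genes, 100 genes were changed by 1 (log2) and 100 by 0.5, with normally distributed noise. Of these changes, 77% and 12% were recovered. In the data far more genes were called (28.0% higher and 29.0% lower), so these rates do not describe that fit directly. Overlaps, percentiles and exact permutation tests used scipy 1.17.1, pandas 2.3.3, numpy 2.4.6 and Python 3.11.15, and figures matplotlib 3.10.9. Gene spans are those of RefSeq for Release 6.

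The genes and lists were chosen with earlier results of these data known. Given with a value per library were genes called by the gene-level fit, genes with a region called in 1 neuron type, and the 5 highest and 5 lowest differences in that fit. For each, the region with the lowest p, or the called-in-1-type region with the highest mean signal, was given. The processing genes *Fur2* and *IA-2* were not called and *Cadps* had no region. Alternatives were other scalings, measures, peak thresholds, assignments and overlaps, equal numbers of peaks, a minimum signal, a stricter threshold, a replicate block and leaving out each library. A summit inside the region and a minimum fold enrichment of 1.93 were added after seeing the data. Sequences were not used here.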

Additional observations from a re-analysis of the deposited data

How the results depend on the processing

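The counts rest on which peaks are compared. With peaks of -log10 q of at least 5, 4 peptide genes could be fitted. Of these, 1 was higher (*ITP*) and 2 lower (*Proc*, *amn*) in dopamine neurons, beside 28.4% and 28.0% of all genes. Of 8 regions, 4 were higher and 4 lower, beside 27.6% and 28.7% of all regions. In that setting 11 regions were dopamine-only, 6.67% of the peptide gene regions beside 6.15% of all regions. Where a list without a peak took its own lowest value, an imputed value, 38 genes were fitted. Of these, 6 were higher (*NPF*, *ITP*, *Ilp8*, *CNMa*, *Nplp3* and *ETH*) and 19 lower, beside 23.2% and 25.7% of all genes. At the level of regions, 27 of 139 were higher and 35 lower, beside 17.6% of all regions in each direction. By gene span and 2 kb on each side, 9 of 25 genes were higher and 10 lower, beside 26.7% and 28.2% of all genes. The counts higher and lower were thus closer to each other than in the fit by nearest gene. Among the higher were *Akh*, *CCAP*, *Dsk* and *FMRFa*. In the windows of *Akh* and *CCAP* no region was assigned to the gene itself, and the nearest genes named were neighbours. At *Dsk* and *FMRFa* the dopamine peaks lay outside the regions assigned to the gene. *CNMa* was lower (-0.34), *CCHa1* turned to 0.63 and *Orcokinin* to 0.19 (adjusted p = 0.355). As a mean over regions, 1 gene was higher. With regions of at least the median signal, 4 of 7 genes were lower, beside 31.0% of all genes. There 17 regions were GABA-only, and the share over all regions in that setting is not given here. With equal numbers of peaks 18 were, 10.9% of the peptide gene regions beside 8.71% of all regions. In the processing list, 1 gene was higher with median centring, with -log10 q, as a mean over regions (6 lower in each) and at an adjusted p under 0.01 (4 lower). The counts by percentile order kept within 1.5 times of the values above under every alternative run. The gene span and 2 kb on each side was not among the alternatives run for these counts. Of 202 values of single genes under alternatives, 192 kept their direction and call. Over its alternatives, the adjusted p (limma) ran between 0.00155 and 0.107 for *Lk*, 8.73e-06 and 0.637 for *Tk*, 4.56e-07 and 0.0227 for *CCHa1* (the direction turned), 3.29e-08 and 0.890 for *Nplp1* and 0.0351 and 0.355 for *Orcokinin*.

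Without 1 library in turn, 2 genes were higher and 9 to 11 lower, beside 21.1% to 28.2% and 24.1% to 28.6% of all genes. At the level of regions, 5 to 7 were higher and 11 to 14 lower, beside 19.0% to 24.7% and 21.4% to 26.9% of all regions. Then 19 to 22 regions were dopamine-only and 31 to 37 GABA-only, and 6 to 7 genes ranked above in dopamine neurons and 26 to 27 below. With fewer lists to meet, these counts of regions and of ranks could not fall below those of all 5 libraries. Of the processing genes, 1 to 3 were higher and 4 to 5 lower, and the count of 1 was without dopamine library 2. Same-numbered libraries did not deviate together (correlations of -0.016 and 0.054). With the replicate number as a block, 2 genes were higher and 11 lower, beside 29.4% and 29.9% of all genes. The added lower gene was *Orcokinin* (limma, -0.39, adjusted p = 0.0452). At the level of regions, 6 were higher and 14 lower, beside 25.0% and 27.2% of all regions. Unequal list lengths and settings of peak calling limit each count of peaks.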
